A study of Mus musculus with 2 samples.

Results

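The genes described here are Lars2 and 4 untranslated RNA genes named beside it, Gm26917, AL732506.1, CT010467.1 and Gm42418. They were chosen by symbol, 5 of 53801 genes in the deposited table, because earlier results of these data had shown all of them higher in 1 of 2 libraries. Their differences between the libraries are therefore given as a description, with no test. RNA was measured in spermatocytes sorted from mouse testis. The wild-type library carries the genotype label SMC1beta WT. The other library is labelled as an SMC1beta knockout that overexpresses SMC1alpha, and is called the library labelled knockout. Both samples have "4N" in their titles, which the labels do not explain. What drives SMC1alpha, and the age and strain of the mice, is information not given in the sources used here. Each genotype had 1 library, so no difference below has a replicate check and no p-value is given. Both libraries were made from total RNA from which a kit had removed ribosomal RNA (rRNA), by a strand-specific protocol.

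Cytosolic ribosomes are built on rRNA that RNA polymerase I copies from tandem repeats as a long precursor. The precursor holds spacers rich in G and C, the small-subunit RNA and the large-subunit RNA, and it is cut into the mature RNAs. RNase MRP is an RNA-protein enzyme that makes 1 of these cuts, and its RNA component is the product of Rmrp. The repeat arrays are largely missing from the mouse genome assembly, but single copies and fragments lie elsewhere on the chromosomes. rRNA is most of the RNA of a cell, and depletion before sequencing removes most of it. Lars2 encodes the mitochondrial leucyl-tRNA synthetase, which charges the tRNA for leucine in mitochondria.

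The label of the group, ribosomal-RNA-like, was checked against the sequences of GENCODE M21, an annotation of the same mm10 build in which the 5 genes have the same coordinates. Lars2 (ENSMUSG00000035202; chromosome 9, 123366927 to 123462666, plus strand) carried, in the 3′ untranslated part of exon 21 of its longest transcript, a stretch of 187 bases at chr9:123461933-123462119 with close matches in AA474408 and Gm15564. From knowledge of rRNA and not from a file, this stretch reads as a conserved core segment of the large-subunit rRNA. No large-subunit sequence was used here, so that identity was not computed. These pieces are shown because they tie Lars2 to the other 2 genes. Capitals mark the last 25 bases of an exact match of each pair, 52 bases long with Gm15564 and 41 with AA474408. Some lower-case bases of the first pair also match. The first pair is read at chr9:123462075-123462104 (plus strand) for Lars2 and chr16:35981740-35981769 (minus strand) for Gm15564. The second is read at chr9:123461958-123461987 (plus strand) for Lars2 and chr7:110059774-110059803 (minus strand) for AA474408.
Lars2: CCACTAATAGGGAACGTGAGCTGGGattag
Gm15564: CCACTAATAGGGAACGTGAGCTGGGtttag
Lars2: ACAGGGATAACTGGCTTGTGGCGGCcaagc
AA474408: ACAGGGATAACTGGCTTGTGGCGGCttttt

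CT010467.1 (ENSMUSG00000106106; chromosome 17, 39846353 to 39848827, minus strand) is the member classed as rRNA. Gm42418 (ENSMUSG00000098178; chromosome 17, 39846958 to 39848788, plus strand) is classed as lincRNA and lies wholly inside it on the opposite strand. RefSeq, on GRCm38.p6, names a pseudogene of 1849 bases here Rn18s-rs5, a copy related to small-subunit rRNA, at 39846354 to 39848202, and lists Gm42418 among its synonyms. The same 60 genomic bases at chr17:39848142-39848201, printed as each gene reads them, show that these are the 2 strands of one sequence. Which of the 2 strands reads as the rRNA itself was not computed, and the class of CT010467.1 does not settle it. Capitals mark the first 20 bases of 1 CT010467.1 transcript and their reverse complement in Gm42418.
CT010467.1: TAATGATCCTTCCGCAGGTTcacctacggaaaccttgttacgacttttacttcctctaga
Gm42418: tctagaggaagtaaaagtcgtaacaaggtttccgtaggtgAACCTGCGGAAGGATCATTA
Gm26917 (ENSMUSG00000097971; chromosome 17, 39843013 to 39846341, plus strand), also a lincRNA by class, ends 11 bases before the lower end of CT010467.1. It shared no 31-base word with any other transcript of the annotation. Its most G- and C-rich 60 bases (86.7% G+C, chr17:39845678-39845737, plus strand) are shown for their composition, with no part in capitals.
Gm26917: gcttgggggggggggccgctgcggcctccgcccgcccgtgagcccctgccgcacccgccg

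AL732506.1 (ENSMUSG00000115420; chromosome 4, 43492783 to 43493063, minus strand) goes against the label by its annotation. GENCODE M21 calls the same identifier Rmrp, and its 281 bases are the 271 bases of the separately listed Rmrp gene (capitals) with 5 more at each end. By annotation and by this nesting it is an entry of the RNase MRP RNA. It shared no 31-base word with the other members, as was also true of Lars2 and Gm26917, and its likeness to rRNA was not tested. It is shown whole because the results on it turn on this nesting.
AL732506.1: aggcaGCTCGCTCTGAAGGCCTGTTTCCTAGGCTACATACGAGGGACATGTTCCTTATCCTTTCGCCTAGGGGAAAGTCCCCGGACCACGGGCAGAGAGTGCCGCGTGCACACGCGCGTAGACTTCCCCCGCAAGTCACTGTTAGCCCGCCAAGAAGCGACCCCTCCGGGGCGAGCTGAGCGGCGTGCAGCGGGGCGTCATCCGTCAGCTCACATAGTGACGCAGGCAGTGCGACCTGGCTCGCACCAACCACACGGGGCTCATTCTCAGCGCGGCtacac
Of the 10 pairs of members, 1 shared any 31-base word, CT010467.1 with Gm42418. The opposite strand of CT010467.1 held 96.3% of the words of Gm42418, and Gm42418 held 70.4% of the words of CT010467.1 in the same way.

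Values are TPM, transcript levels adjusted for gene length and scaled so that each library sums to 1000000. No read counts are in the table, and the depth of each value is unknown. Smc1b stood at 76.1 TPM in wild type against 62.9 TPM in the library labelled knockout, a gene-level value that does not show whether a deleted part is present. Smc1a stood at 0.510 and 28.8 TPM, and paired values are given in this order, wild type first, from here on. The libraries also differed in markers of other testis cells and stages. Markers at 1 TPM or more in either library were counted. In the library labelled knockout 10 of 11 Leydig, 13 of 17 Sertoli, 7 of 8 macrophage and 10 of 14 spermatogonia markers were past 2-fold upward. Downward were 0 of them, beside 15.0% upward and 19.3% downward among all genes counted in this way. Markers under 1 TPM in wild type could enter only through the library labelled knockout, so the filter fixed part of these upward counts. The median wild-type level of all listed markers was 0.394 TPM for macrophage and 0.579 TPM for spermatogonia markers. Over all listed markers of each type, those under 1 TPM included, the summed TPM in wild type against the library labelled knockout was 125 and 1884 for Leydig, 122 and 633 for Sertoli, 4.60 and 43.2 for macrophage, and 41.0 and 127 for spermatogonia markers. C1qa, Fcer1g and Rhox13 were listed at 0 in wild type, and Rhox10 was at 0 in both libraries. Of the spermatid markers 15 of 15 were at least 2-fold lower (3705 and 450.5 TPM summed), and of the pachytene spermatocyte markers 6 of 12 were 2-fold lower and 1 was higher (6896 and 3939 TPM). The part of these cell differences in the results below was not tested. In bulk RNA, fewer cells of a type and less RNA per cell cannot be told apart.

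All 5 members stood higher in the library labelled knockout. Lars2 stood at 5.68 TPM in wild type against 260 TPM in the library labelled knockout. Gm26917 stood at 3171 TPM in wild type against 10941 TPM in the library labelled knockout. AL732506.1 stood at 2435 TPM and 10801 TPM in the same order. In both libraries Lars2 was well under Gm26917 and AL732506.1, which were about level in the library labelled knockout. CT010467.1 stood at 3562 TPM in wild type against 8295 TPM in the library labelled knockout. Gm42418 stood at 547 TPM and 1950.0 TPM. Both genes of the overlapping pair were thus higher in the library labelled knockout, Gm42418 by the larger factor.

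The library labelled knockout held 45.7 times the wild-type TPM of Lars2, 4.44 times that of AL732506.1, 3.56 times that of Gm42418, 3.45 times that of Gm26917 and 2.33 times that of CT010467.1. On the scale of log2 of (TPM + 1) for the library labelled knockout divided by the wild-type value, the ratios were 5.29, 2.15, 1.83, 1.79 and 1.22. A total of 23148 genes reached 1 TPM in either library, and each member did so in both. At least 2-fold higher were 5 of the 5 members, against 15.0% of all these genes, a count that the choice of members fixed. Of all genes 19.3% were at least 2-fold lower. As deposited 3478 genes were past 2-fold upward and 4468 downward. Scaling moved that split, to 4264 and 3579 after a trimmed mean, 6053 and 3646 over protein-coding genes alone, and 6138 and 3314 with mitochondrial genes and the 20 most abundant left out of the total. The last of these shifts log2 ratios by 0.41 before the pseudocount is added, and with it took that of Lars2 from 5.29 to 5.76. All 5 members were past 2-fold under each scaling, and each of these scalings shifts ratios upward. Among the 23148 genes, 6 had a higher log2 ratio than Lars2, and 1 of those was protein-coding.

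**Figure D1:**
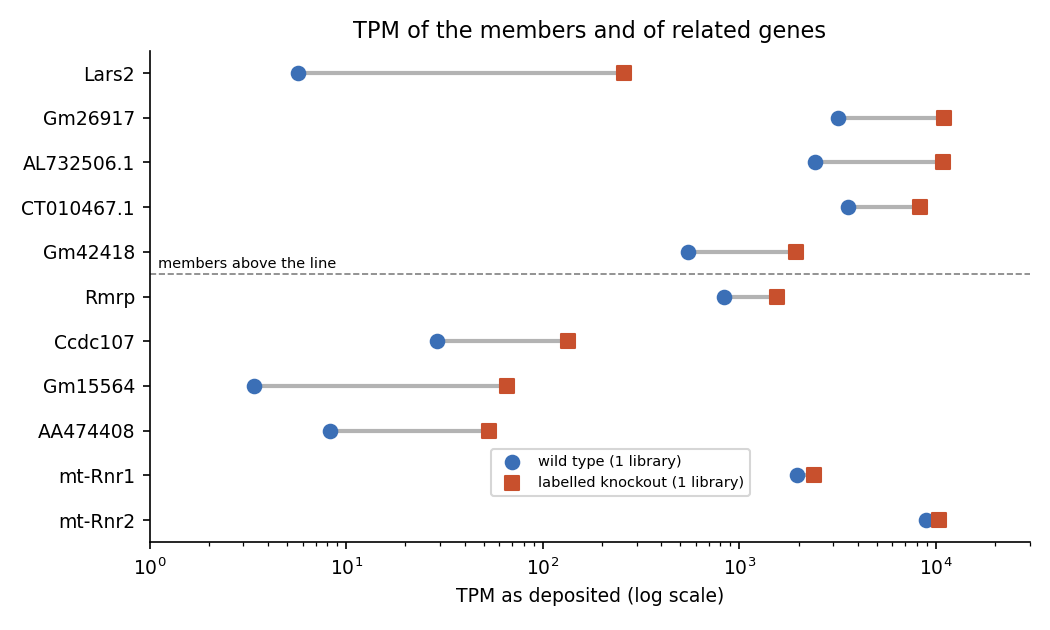
TPM as deposited (log axis) of the 5 members and of 6 related genes, with 1 circle for the wild-type library and 1 square for the library labelled knockout. Lars2 spans 5.68 to 260 TPM, the other members move by 2.33 to 4.44 times, and the mitochondrial rRNAs mt-Rnr1 and mt-Rnr2 by 1.21 and 1.17 times.

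Together the 5 genes made up 0.972% of the wild-type total and 3.22% in the library labelled knockout, 3.32 times as much. Among all genes Gm26917 ranked 12 by TPM in wild type against 5 in the library labelled knockout, AL732506.1 15 and 6, CT010467.1 9 and 8, Gm42418 131 and 15, and Lars2 11355 and 255. TPM counts transcripts and not bases, so each value was also weighted by the gene length in the table. By that weighting Gm26917 (3329 bases) held 0.324% and 1.39% of the weighted total, CT010467.1 (2466 bases) 0.269% and 0.783%, and AL732506.1 (281 bases) 0.0210% and 0.116%. Lars2, with 11089 bases of exon, went from 0.00193% to 0.110%, close to the share of AL732506.1. The longest Lars2 transcript has 3894 bases, so with a transcript length its share would be smaller. The weighted shares therefore put the 2 longest chromosome 17 genes first and AL732506.1 well below them, though its TPM was about that of Gm26917 in the library labelled knockout.

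The 3 members on chromosome 17 fill 5815 bases side by side or on top of each other. Their TPM summed to 7280 in wild type against 21186 in the library labelled knockout, a 2.91-fold difference. Gm26917 and Gm42418, both on the plus strand, kept nearly the same proportion in both libraries, 5.80 to 1 in wild type against 5.61 to 1 in the library labelled knockout. CT010467.1, on the minus strand, did not keep pace: Gm26917 stood at 0.890 times its TPM in wild type against 1.32 times in the library labelled knockout. Gm42418 held 13.3% of the joint TPM of the overlapping pair in wild type against 19.0% in the library labelled knockout, and the pair together was 2.49-fold higher. AY036118, a lincRNA of 923 bases wholly inside both, was listed at 0 in both libraries. All 923 bases are also found in CT010467.1 on the same strand, so this 0 does not show that AY036118 is absent. The sources used here do not say whether strand was used in the quantification. Without it, reads from the sequence that CT010467.1 and Gm42418 share cannot be told apart, and the value of each alone is uncertain. The nearest protein-coding genes, Esp15 and Esp38, which encode exocrine gland-secreted peptides, were listed at 0 in both libraries.

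**Figure D2:**
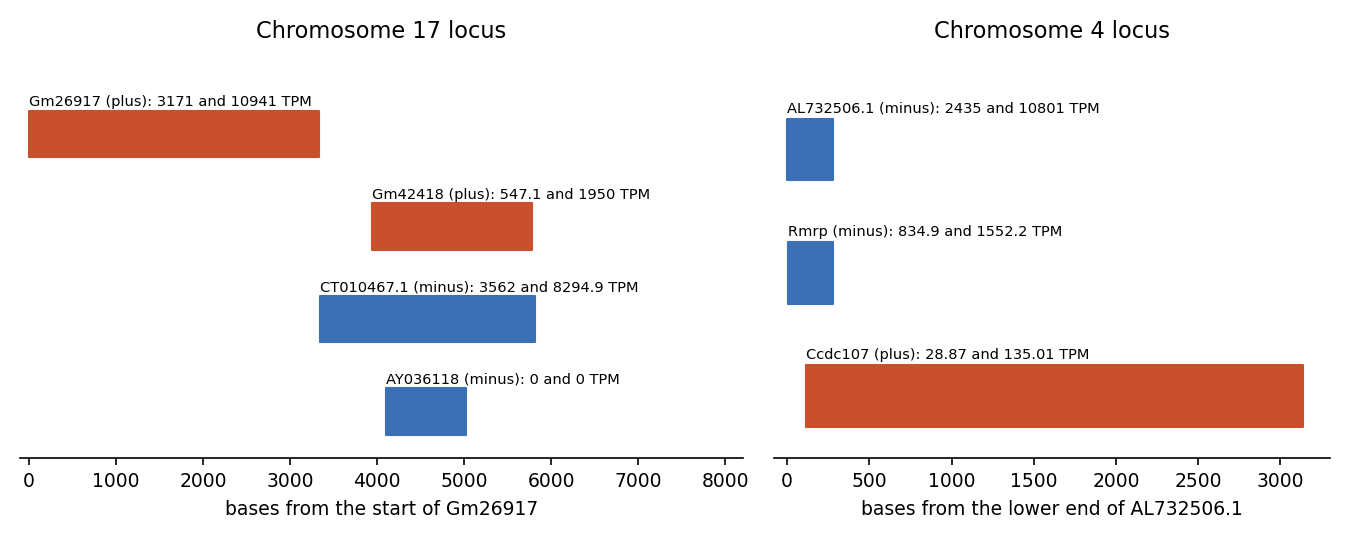
Members on chromosomes 17 and 4 with the genes that overlap them, drawn to scale as distance in bases (plus strand red, minus strand blue), each with its TPM in wild type against the library labelled knockout. CT010467.1 covers all of Gm42418, and AL732506.1 covers all of Rmrp.

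AL732506.1 and Rmrp together stood at 3270 TPM in wild type against 12353 TPM in the library labelled knockout, 3.78-fold higher. The part given to AL732506.1 was 74.5% in wild type against 87.4% in the library labelled knockout. Rmrp itself stood at 835 TPM and 1552 TPM, 1.86-fold, under the 2-fold mark as deposited and over it (2.14 to 2.47-fold) after 3 of the 4 rescalings tried. All but 10 bases of AL732506.1 are the sequence of Rmrp, so the division of reads between the 2 entries is uncertain. Ccdc107, a protein-coding gene that starts on the opposite strand, overlaps AL732506.1 by 164 bases. It stood at 28.9 TPM in wild type against 135 TPM in the library labelled knockout, 4.68-fold higher, and 124 bases of it are the reverse complement of AL732506.1. RefSeq starts Ccdc107 at 43493340, outside AL732506.1. On either side, Arhgef39, a guanine nucleotide exchange factor gene 3078 bases away, was lower in the library labelled knockout at 32.0 and 11.2 TPM, and Sit1, which encodes a lymphocyte adaptor, stood at 0 and 0.293 TPM. All 3 overlapping entries thus stood higher in the library labelled knockout.

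Lars2 had 9 transcripts in the annotation, 5 of them classed as retained introns. The table gives 1 value per gene, so it does not show which part of Lars2 held the reads. The shared stretch makes up 4.80% of the longest transcript (3894 bases, of which 986 are 3′ untranslated) and 1.69% of the exon length in the table. AA474408, classed as TEC, a class for transcripts that await experimental evidence, aligned to it over 50 and 97 bases at 96.0% and 94.8% identity. Gm15564, classed as antisense, aligned over 72 bases at 98.6% identity. Besides these, BLASTN aligned this transcript to Phka1 and Ifitm10, in a later part of the untranslated end.

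Both genes that shared the stretch were also higher in the library labelled knockout. AA474408 stood at 8.24 TPM in wild type against 53.0 TPM in the library labelled knockout, 6.43-fold higher. Gm15564 stood at 3.38 TPM in wild type against 65.4 TPM in the library labelled knockout, 19.3-fold higher. The genes that overlap or flank them differed by less: for AA474408, Zfp143 (5.69 and 7.71 TPM), 1600010M07Rik (18.4 and 9.53 TPM), Ipo7 (21.3 and 37.5 TPM) and Wee1 (18.8 and 13.1 TPM), and for Gm15564, Parp9 (3.802 and 3.31 TPM), Kpna1 (19.8 and 35.4 TPM), Dtx3l (1.61 and 2.03 TPM) and Wdr5b (4.33 and 2.77 TPM). Near Lars2, Limd1, a LIM domain gene 16039 bases away, was lower in the library labelled knockout at 23.8 and 6.84 TPM, and Tmem158 stood at 0 and 0.263 TPM. Lars2, AA474408 and Gm15564 lie on 3 different chromosomes. None of these nearby genes was past 2-fold upward, and the part of local changes in the 3 values was not tested. Phka1, an X-linked phosphorylase kinase gene, stood at 0.168 and 3.48 TPM, and Ifitm10 at 0.145 and 0.225 TPM.

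Most genes that shared 31-base words with another part of Lars2, on either strand, lay within 2-fold, as did most of all genes. On the same strand 37 other genes shared such words, 33 of them were in the table and 27 reached 1 TPM. Of these 27, 2 were past 2-fold upward and 3 downward, beside 15.0% upward and 19.3% downward among all genes at 1 TPM or more. The 27 had a median log2 ratio of -0.58, against -0.22 for all genes. The 2 higher ones were Fam118a (123 and 1127 TPM) and Eda (0.352 and 1.90 TPM). Fam118a lies beside Smc1b on chromosome 15, where Fam118a ends at 85062830 and Smc1b starts at 85064689. The part of that position in the Fam118a values was not tested. The 3 lower ones were Ankrd44 (17.1 and 5.08 TPM), 9130204K15Rik (35.2 and 14.9 TPM) and Dynlt1f (527 and 262 TPM). The longest such stretch, 68 bases of a retained-intron transcript, was shared with Gm47414, which stood at 32.1 TPM in wild type against 16.9 TPM in the library labelled knockout. On the opposite strand 19 genes shared words with any part of Lars2 and 17 reached 1 TPM, of which 4 were past 2-fold upward, 1 downward and 12 between, with a median of -0.23. The 4 higher ones were Gja1 (2.65 and 12.3 TPM), Cobll1 (0.705 and 3.95 TPM), Gm37494 (1.81 and 5.28 TPM) and Fbxw2 (16.1 and 34.6 TPM), and the lower one was Cast (50.3 and 22.3 TPM). This search over all transcripts was added after the values were seen. The part of rRNA reads in the values of Lars2, AA474408 and Gm15564 was not tested, since the reads themselves were not used here.

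**Figure D3:**
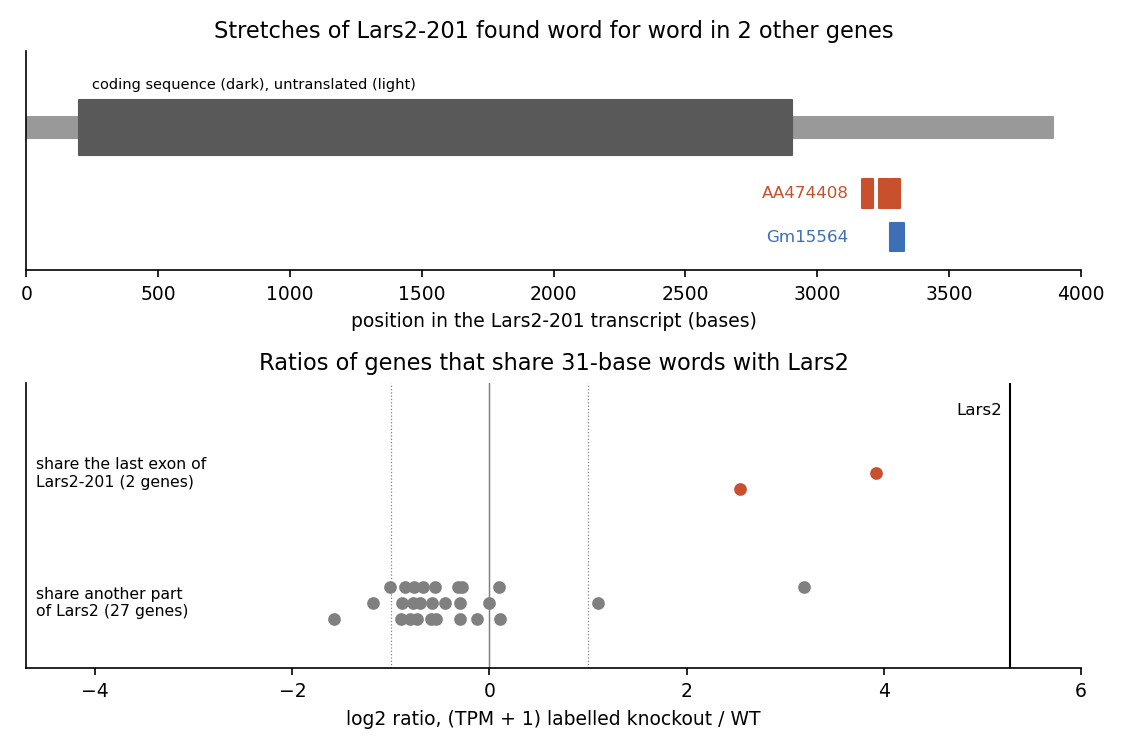
Above, the longest Lars2 transcript in bases with the stretches found word for word in AA474408 and Gm15564. Below, log2 ratios of genes that share 31-base words with Lars2 on the same strand, 1 point per gene at 1 TPM or more, with dotted lines at 2-fold: the 2 genes that share the last exon stand at 2.55 and 3.92, and the 27 that share another part have a median of -0.58. For nearly all of the 27 that part is the same short piece of a retained-intron transcript.

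Among annotated rRNA genes, CT010467.1 was the only one of 354 nuclear entries above 0. The other 353, Rn5s among them, were listed at 0 in both libraries, and in a table without counts an exact 0 can be a failed estimate. The rRNAs of the mitochondrial ribosome were nearly level. mt-Rnr1, the small-subunit RNA, stood at 1973 TPM in wild type against 2394 TPM in the library labelled knockout. mt-Rnr2, the large-subunit RNA, stood at 8910.3 TPM and 10389 TPM. Summed, they were 1.17-fold higher in the library labelled knockout and held 1.09% and 1.28% of all TPM, while the 3 chromosome 17 genes were 2.91-fold higher. After the 4 rescalings mt-Rnr1 lay between 1.24 and 1.61-fold and mt-Rnr2 was at most 1.55-fold, below all 5 members under the same scaling.

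The 4 untranslated members were among the most G- and C-rich genes measured. Gm26917 had 69.1% G+C, AL732506.1 63.7%, Gm42418 60.2% and CT010467.1 59.4%, at percentiles 99.9, 99.6, 99.0 and 98.6 of the 23148 genes. Lars2 had 44.0%, at percentile 41.4. Genes of 60% G+C or more, 265 in all, were more often beyond 2-fold in both directions than genes under 60%: 23.0% against 14.9% were higher and 25.3% against 19.2% were lower. Their median log2 ratio was -0.085 against -0.22 for those under 60%. Each member was also set beside genes within 5 points of its own G+C content, as background to a count that the choice of members fixed. Of these, 30.1% were past 2-fold upward and 20.5% downward for Gm26917 (83 genes), 23.0% and 25.1% for AL732506.1 (370 genes), 264 and 243 of 1259 genes for Gm42418, 20.6% and 19.0% for CT010467.1 (1667 genes) and 13.5% and 19.7% for Lars2 (14253 genes). By class, the lincRNAs (2090 genes) had a median of -0.60, with 5.65% past 2-fold upward and 647 genes downward. Gm26917, Gm42418 and AL732506.1 lay at percentiles 98.7, 98.8 and 99.2 of that class, with 26, 24 and 15 lincRNA genes above them. CT010467.1 was the only rRNA-class gene at 1 TPM or more.

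**Figure D4:**
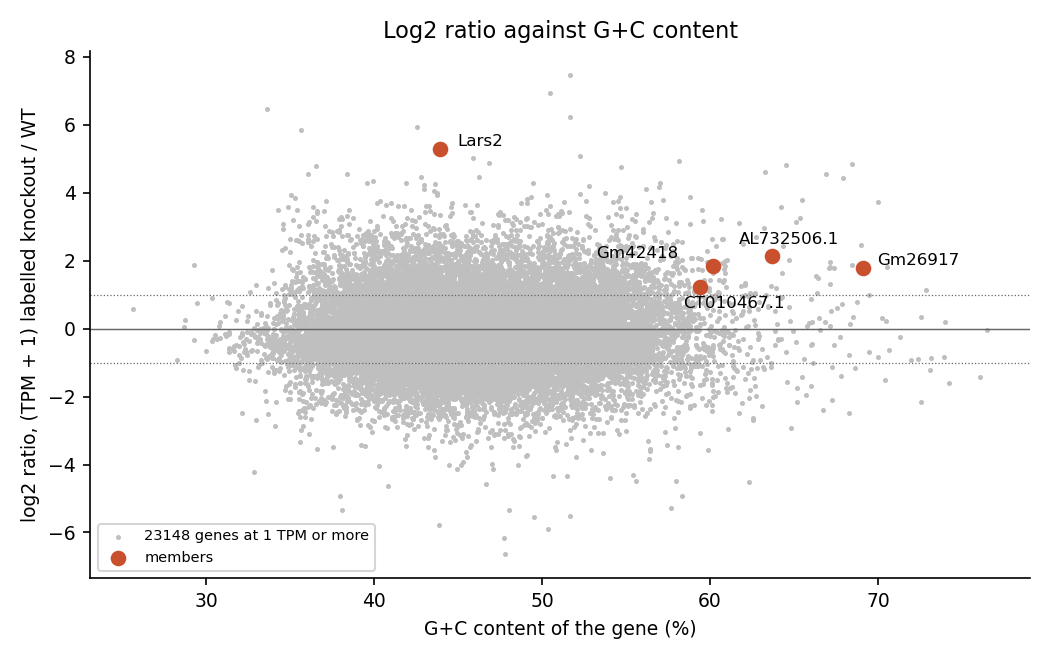
Log2 ratio of (TPM + 1), library labelled knockout over wild type, against G+C content in percent for 23148 genes at 1 TPM or more (grey) and the members (red), with dotted lines at 2-fold. The 4 untranslated members sit at 59.4% to 69.1% G+C with ratios of 1.22 to 2.15, and Lars2 at 44.0% with 5.29.

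The other mitochondrial aminoacyl-tRNA synthetases, the enzyme family of Lars2, all had smaller ratios. Of the 16 others, 3 were at least 2-fold higher on the scale of TPM + 1, 1 was lower and 12 lay between. Of those between, Nars2 (2.09-fold) and Vars2 (2.07-fold) were past 2-fold upward on plain TPM. The 16 had a median log2 ratio of 0.56 against -0.05 for 15000 protein-coding genes, 18.7% of which were at least 2-fold higher and 16.5% lower. Among the higher ones was Yars2, for tyrosine, at 10.4 and 24.9 TPM. Wars2, for tryptophan, stood at 0.859 and 3.21 TPM. The lowest were Aars2, for alanine (16.96 and 7.27 TPM), Fars2, for phenylalanine (85.0 and 48.8 TPM), and Mars2, for methionine (42.4 and 27.5 TPM). In wild type Lars2 at 5.68 TPM lay within the range of the family, and in the library labelled knockout its 260 TPM was above the next member, Rars2, for arginine, at 54.3 TPM. Without Lars2 the family summed to 277 TPM in wild type against 300.4 TPM in the library labelled knockout.

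The cytosolic synthetases, which charge tRNAs for the main pool of ribosomes, had a median of 0.29 over the 19 listed genes in the table. Of these, 4 were at least 2-fold higher, 1 lower and 14 between, beside 18.7% higher and 16.5% lower among protein-coding genes. Lars, the cytosolic leucyl-tRNA synthetase, stood at 22.8 TPM in wild type against 33.9 TPM in the library labelled knockout, a ratio of 0.55, far under that of its mitochondrial counterpart. Tars (7.30 and 23.4 TPM), Iars (29.2 and 79.5 TPM) and Gars (25.8 and 54.1 TPM) were the highest, and Hars (21.2 and 8.78 TPM), Dars (117 and 60.6 TPM) and Aars (84.5 and 57.6 TPM) the lowest. The 14 mitochondrial translation factors and tRNA-modifying enzymes, which serve the same mitochondrial ribosomes, had a median of -0.22, with 1 higher, 1 lower and 12 between, and that median too was positive after 2 of the rescalings. Mtrf1l, a release factor, stood at 0.232 and 2.58 TPM, Trmu at 13.8 and 24.2 TPM and Gtpbp3 at 3.67 and 5.21 TPM. Mtif3, an initiation factor, stood at 31.7 and 11.4 TPM, Tsfm, an elongation factor, at 19.4 and 9.28 TPM and Mrrf, the recycling factor, at 27.5 and 15.9 TPM. In each of these lists most genes lay within 2-fold, as did most protein-coding genes.

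Most genes that make or process rRNA lay within 2-fold, as did most protein-coding genes. The 16 genes of RNA polymerase I and its factors had a median of -0.20, and that median turned positive after 2 of the rescalings. Of the 16, 3 were at least 2-fold higher, 1 lower and 12 between, beside 18.7% higher and 16.5% lower among protein-coding genes. Ubtf, which binds the rRNA gene repeats, stood at 1.98 TPM in wild type against 9.72 TPM in the library labelled knockout, Taf1d at 51.5 and 133 TPM and the subunit gene Polr1b at 3.27 and 8.23 TPM. Tbp, the TATA-binding protein gene, stood at 227 and 105 TPM, Polr1a, the largest subunit, at 64.3 and 33.8 TPM and Taf1a at 37.2 and 24.6 TPM. The 30 rRNA processing genes had a median of 0.43, with 7 at least 2-fold higher, 0 lower and 23 between, beside the 18.7% and 16.5% of protein-coding genes given above. Nop56, a core protein of the particles that methylate rRNA, stood at 4.66 and 41.5 TPM, Ncl, which encodes nucleolin, at 8.21 and 46.2 TPM and Fbl, which encodes the rRNA methylase fibrillarin, at 2.77 and 14.9 TPM. Wdr12 (175 and 103 TPM), Nop10 (76.6 and 54.8 TPM) and Exosc10 (61.6 and 45.004 TPM) had the lowest ratios. The 7 higher genes were so in the library that also held more Leydig, Sertoli, macrophage and spermatogonia marker RNA, whose part was not tested.

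**Figure D5:**
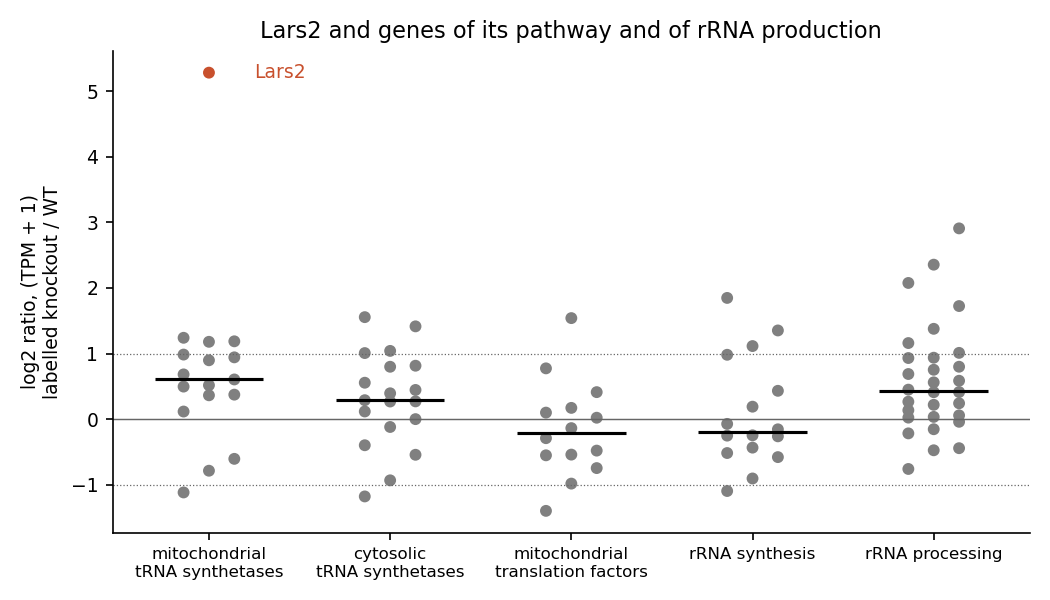
Log2 ratio of (TPM + 1), library labelled knockout over wild type, for 5 gene lists, 1 point per gene at 1 TPM or more, a bar at each median and dotted lines at 2-fold. Lars2 (red) stands at 5.29, and the other points lie between -1.40 and 2.91.

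With 2 libraries, likeness to a member can only mean a like log2 ratio, and it was measured among 3686 genes that reached 50 TPM in either library. Nearest to Lars2 were Insl3, a Leydig cell hormone gene (43.3 and 1352 TPM, 0.35 away), Lcn2, which encodes an iron-carrier protein (7.62 and 231 TPM, 0.54 away), and Gm10800 (2.17 and 183 TPM, 0.57 away). Nearest to Gm26917 were Rpph1, the RNA of RNase P (6741 and 23158 TPM), Tex12 and Tmed2, all within 0.03. Ptma, Cpsf6 and Uimc1 were nearest to AL732506.1, and Ckap5, Atp11b and H2-K1 to CT010467.1. Cst9, Nedd4 and the testis histone gene Hist1h2ba (2013 and 7101 TPM) were nearest to Gm42418. Rpph1, like AL732506.1, is a short untranslated RNA copied by RNA polymerase III, and its level was the highest of these neighbours.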

How the data were processed

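The deposited table holds 1 TPM value per gene and library, which the authors computed. Per the file headers, gene length in bases and G+C as a percent stand beside them. The submitters' processing notes name kallisto 0.43.1, TopHat, GSNAP, bcl2fastq 2.19.1 and the build mm10, with no role or order. Annotation release, filters and use of strand: not given in the sources used here. Single-end reads of 75 bases were sequenced, per the labels' protocols, to at least 40 M reads, and the depth of each value is unknown.

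The members, lists and rules were chosen with earlier results of these data known. Ratios were log2 of (TPM + 1), for genes that reached 1 TPM in either library, and 2-fold was the mark for a count. Named were the members, rRNA-class genes at 5 TPM or more, the 3 highest and 3 lowest of each list, the 3 genes nearest in ratio to each member, overlapping genes, nearest protein-coding genes, Smc1b and Smc1a. A gene of the mitochondrial synthetase list that this rule names is not reported here. AA474408, Gm15564, their neighbours, other genes sharing words with Lars2, and Lars, Rars2 and Rn5s were named after values were seen. Where a symbol was repeated (129 entries), the entry with the higher mean was used in lists, and Mars1 was not matched. Exact words of 31 bases (25 and 75 as alternatives) and BLASTN 2.17.0 were run on GENCODE M21 transcripts, which held 99.7% of the identifiers. Counting and word search were checked on simulated data. Work was done in Python 3.11.15 with pandas 2.3.3, NumPy 2.4.6 and, for plots, Matplotlib 3.10.9.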

Additional observations from a re-analysis of the deposited data

How the results depend on the processing

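No paired analysis was possible because each genotype had 1 library, and no replicate could be left out. The 5 member ratios stayed positive and at least 2-fold under all 8 settings that kept the 2-fold mark. Ranges were 4.63 to 5.76 for Lars2, 2.15 to 2.56 for AL732506.1, 1.82 to 2.24 for Gm42418, 1.78 to 2.194 for Gm26917 and 1.22 to 1.63 for CT010467.1. Much of this was fixed in advance. A filter cannot change a member ratio, and every rescaling shifts ratios upward, so only a larger pseudocount could lower them. A 4-fold mark left only Lars2 and AL732506.1 past it; Gm26917 (1.79), Gm42418 (1.83), CT010467.1 and the rRNA class it alone makes up (1.22) and the summed members (1.73) were under it, and it left 833 genes higher and 779 lower. With a pseudocount of 5 TPM 1144 of all genes were higher and 2189 lower, and with a filter of 5 TPM 1942 were higher. Higher genes were 43.8% of those past 2-fold as deposited, 54.4% after the trimmed mean, 64.9% (6138 higher) without mitochondrial and the 20 most abundant genes and 62.4% (6053 higher) over protein-coding genes alone. The last pair of scalings turned the median of all genes to 0.17 and 0.13, that of rRNA synthesis to 0.20 and 0.15 and that of mitochondrial translation factors to 0.18 and 0.13, and the former put the mitochondrial synthetases at 1.01. Before the pseudocount they shift log2 ratios by 0.41 and 0.35, and the trimmed mean by 0.20; with it the shift differs between genes. Of 92 recomputed list counts, 32 moved by over 1.5 times. Depth limits could not be given, since TPM keeps no counts.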
